A study of Mus musculus with 8 samples.

Results

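The transcript levels of 10 genes that carry, assist or restrain the response of the cell to cAMP were examined in PDGFRA-positive cells of the mouse heart. The genes were chosen by name from the 18957 gene symbols listed for every library. They comprised the transcription factors *Creb1*, *Crem* and *Atf1*, the coactivators *Crtc1*, *Crtc2*, *Crtc3* and *Crebbp*, and the feedback genes *Sik1*, *Pde4b* and *Pde4d*. All 10 were listed, each with at least 21 counts in every library, and all 10 were among the 13036 genes that passed the filter on low counts.

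RNA came from ventricular cells that had been released with collagenase and sorted by FACS for PDGFRA and for the absence of lineage markers. There were 4 WT and, as the deleted genotype, 4 *Pdgfra-Cre:Lmna*F/F samples, here also called LMNA-deficient, from mice of 3 to 4 weeks of age with the strain label C57BL/6 (mixed). The *Pdgfra-Cre:Lmna*F/F mice carried floxed alleles of *Lmna* exon 2 and a BAC transgene that expresses Cre under the control of *Pdgfra*, which also deletes *Lmna* in a subset of cardiac myocytes. The WT samples came from littermates with wild-type alleles only, so the floxed alleles and the Cre transgene cannot be told apart from the loss of *Lmna*. The labels do not say that each sample was a separate mouse, and the p-values measure the spread between these samples.

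Receptors that couple to the G protein Gs raise cAMP, and cAMP releases the catalytic subunits of protein kinase A, which phosphorylate CREB1 and its relatives ATF1 and CREM on DNA. The phosphorylated factors recruit the acetyltransferase CBP, encoded by *Crebbp*, and are assisted by the CRTC coactivators, which enter the nucleus when salt-inducible kinases stop phosphorylating them. SIK1 and the cAMP phosphodiesterases PDE4B and PDE4D close the loop, since they restrain the CRTC proteins and hydrolyse cAMP, and cAMP itself induces *Sik1* and several Pde4 transcripts. In cardiac fibroblasts, cAMP is known to oppose proliferation and collagen synthesis. Much of this circuit works through phosphorylation and location of proteins, which RNA levels do not record.

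The total count per library lay between 2080555 (WT replicate 2) and 12502949 (LMNA-deficient replicate 4). *Lmna* had a log2 fold change of -1.72 ± 0.22 (SE, edgeR adjusted p = 0.00492), with no overlap between the genotypes. The summed level of 9 fibroblast markers, which include the sorted marker *Pdgfra*, lay between 82653 and 100050 CPM, the count of a gene scaled to the TMM-normalized library size, in the 8 libraries. The summed level of 8 cardiac myocyte markers was 3223 CPM in LMNA-deficient replicate 4 and at most 585 CPM in the other libraries, and that of 7 hematopoietic markers was 349 CPM in the same library and at most 158 CPM elsewhere. The summed levels of endothelial, mural, erythroid, Schwann, epicardial and adipocyte markers overlapped between the genotypes, and the exact p of the permutation test was at least 0.114 for each of the 9 cell types. The 4 Y-linked genes *Ddx3y*, *Eif2s3y*, *Kdm5d* and *Uty* together had 143 to 273 CPM in WT replicates 1, 2 and 4 and in LMNA-deficient replicate 4, and at most 1.96 CPM in the other 4 libraries. The labels give no sex. In sorted bulk cells, fewer cells of a type and less RNA per cell cannot be told apart.

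The levels of the 10 genes were first compared with each other per kilobase of merged exons, averaged over the 4 WT libraries. *Sik1* had the highest level, 23.1 ± 3.003 CPM per kb (SD, n = 4), followed by *Crebbp* at 13.1 ± 4.89 CPM per kb and *Crtc3* at 11.0 ± 1.70 CPM per kb. The WT libraries of *Sik1* lay above all those of *Crebbp*, and the ranges of *Crebbp* and *Crtc3* overlapped. *Crtc2*, *Atf1*, *Creb1* and *Pde4b* formed a middle group with 6.69 ± 1.45, 6.00 ± 1.96, 5.91 ± 0.99 and 5.89 ± 0.91 CPM per kb, each overlapping its neighbour in this order. *Crem* at 2.85 ± 1.62 CPM per kb, *Pde4d* at 2.06 ± 0.41 CPM per kb and *Crtc1* at 1.59 ± 0.50 CPM per kb were lowest, and each again overlapped its neighbour. Between *Crtc3* and *Crtc2* the WT ranges did not overlap. When the length of the longest transcript was used, *Sik1* stayed first and *Crtc1* last, while *Pde4b* moved from position 7 to position 4. *Crtc3* then took position 2 and *Crebbp* position 3. *Creb1*, *Crtc2*, *Atf1*, *Pde4d* and *Crem* came at positions 5, 6, 7, 8 and 9. The Pde4 genes have long loci with many annotated transcripts, 13 for *Pde4b* and 20 for *Pde4d*. In proportion, their WT level per kb changed most with the length chosen, to 14.5 and 5.86 CPM per kb.

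**Figure D1:**
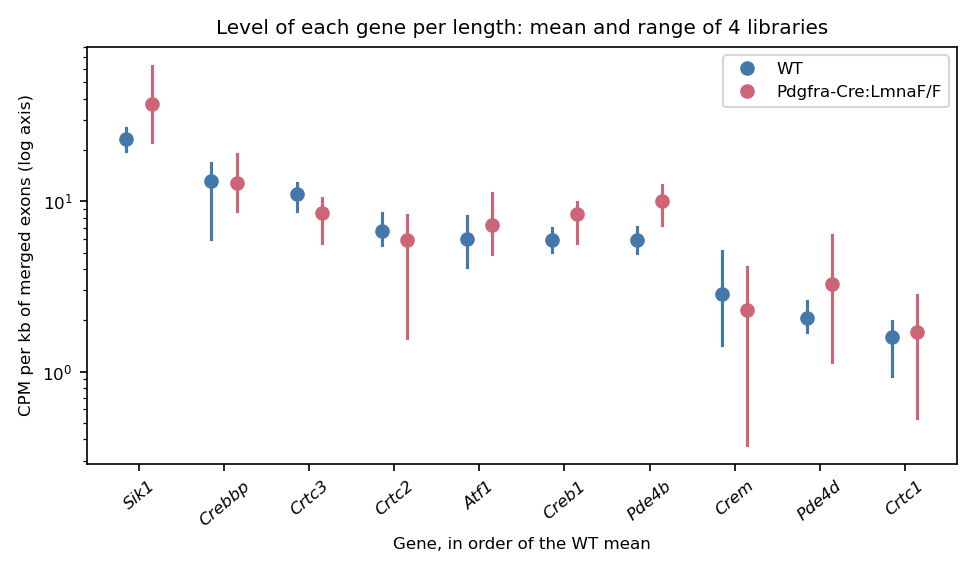
Level of each of the 10 genes per kilobase of merged exons (CPM per kb, log axis), in order of the WT mean. Points are the means of 4 libraries and lines run from the lowest to the highest library; *Sik1* is highest and *Crtc1* lowest in the WT cells, at 23.1 and 1.59 CPM per kb.

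The promoters were searched for the cAMP response element, the sequence that CREB1, CREM and ATF1 bind. The windows are those of RefSeq on the build GRCm38.p6 (mm10), from 250 bases before to 50 bases after an annotated start, and they were searched on both strands for the full element TGACGTCA and for its half-site TGACG, which the full element contains on each strand. Windows were at hand for 7 of the 10 genes, 10 windows in all. None of these windows held the full element, and 2 of them (20%), those of *Atf1* and 1 of the 4 windows of *Pde4b*, held a half-site. Among all 32851 RefSeq windows, 1.79% held the full element and 20.8% a half-site. The 250 bases before the start of *Atf1*, chr15:100227609-100227858 (forward strand), and of *Pde4b*, chr4:102421305-102421554 (forward strand), are shown because they hold the matches among the 10 genes, beside those of the target gene *Btg2*, chr1:134079156-134079405 (reverse strand), which holds a full element and passed the test described further on. The half-site begins 90 bases before the start of *Atf1*, and 34 bases before that start of *Pde4b*, where it lies on the reverse strand. All are written 5′ to 3′ in the direction of the gene, with the matches in capitals.
Atf1: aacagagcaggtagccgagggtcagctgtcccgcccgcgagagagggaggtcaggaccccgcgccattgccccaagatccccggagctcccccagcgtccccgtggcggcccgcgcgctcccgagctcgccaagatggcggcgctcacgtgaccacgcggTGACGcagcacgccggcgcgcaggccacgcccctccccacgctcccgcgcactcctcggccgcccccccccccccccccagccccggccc
Pde4b: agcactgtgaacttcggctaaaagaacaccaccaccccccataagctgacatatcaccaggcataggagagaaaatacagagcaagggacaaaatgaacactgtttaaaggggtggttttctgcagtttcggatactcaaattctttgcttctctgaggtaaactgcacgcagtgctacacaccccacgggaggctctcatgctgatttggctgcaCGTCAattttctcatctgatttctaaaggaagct
Btg2: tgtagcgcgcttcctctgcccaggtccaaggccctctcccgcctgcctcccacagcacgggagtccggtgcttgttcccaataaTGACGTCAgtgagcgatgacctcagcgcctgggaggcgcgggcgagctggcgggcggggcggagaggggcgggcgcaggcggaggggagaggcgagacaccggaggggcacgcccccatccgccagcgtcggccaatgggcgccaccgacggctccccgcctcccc
A match is a description of the letters and not evidence of binding, which was not measured here.

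Among the transcription factors, *Creb1* differed most between the genotypes in the edgeR test of all libraries. In some other fits *Crem* differed more. The log2 fold changes of *Crem* and *Creb1* were -0.57 and 0.27 with the Y-linked level as a covariate, and -0.75 and 0.44 without LMNA-deficient replicate 3. *Creb1* (ENSMUSG00000025958.14, chromosome 1 from 64532645 to 64604548 of mm10, forward strand) encodes the founding member of the family and is transcribed in most cells. Its level was 90.2, 69.4, 95.5 and 69.7 CPM for WT replicates 1 to 4 and 118, 135, 129 and 77.7 CPM in LMNA-deficient replicates 1 to 4. The first 3 LMNA-deficient libraries were above every WT library, whereas the fourth lay inside the WT range. The means were 81.2 ± 13.6 CPM in the WT and 115 ± 25.8 CPM in the LMNA-deficient cells (SD, n = 4 each). The level was 1.41-fold of that in WT, a log2 fold change of 0.50 ± 0.22 (SE, 95% interval 0.030 to 0.97), with an unadjusted p of 0.0385 and an adjusted p of 0.391 from edgeR.

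The 4 libraries with the highest *Creb1* level were the 4 with at most 1.96 CPM of Y-linked RNA, the WT library among them included, and no test was made of that difference. The 1 LMNA-deficient library with Y-linked RNA, replicate 4, was also the one with the most cardiac myocyte and hematopoietic marker RNA, and without it the log2 fold change of *Creb1* was 0.65 (edgeR adjusted p = 0.206). Within the libraries that had Y-linked RNA, *Creb1* was at 76.4 CPM in 3 WT and 77.7 CPM in 1 LMNA-deficient library, a log2 ratio of 0.025. Within the libraries near 0 it was at 95.5 CPM in 1 WT library and at a mean of 127 CPM in 3 LMNA-deficient libraries, a log2 ratio of 0.42. With the Y-linked level as a covariate, the log2 fold change was 0.27 ± 0.22 (SE, edgeR adjusted p = 0.635, the highest of the 10 alternative fits, which began at 0.212). This split of the libraries was added after the data had been seen.

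*Crem* and *Atf1*, the relatives of *Creb1*, overlapped between the genotypes. *Crem* (ENSMUSG00000063889.16, chromosome 18 from 3266048 to 3337748, reverse strand) gives rise to activators and to the inducible repressor ICER from 39 annotated transcripts, which the counts per gene do not separate. It was at 17.1, 11.6, 30.0 and 8.39 CPM for WT replicates 1 to 4 and at 17.7, 2.19, 24.2 and 10.1 CPM in LMNA-deficient replicates 1 to 4. Replicate 3 was the highest library of both genotypes, and LMNA-deficient replicate 2 was below all others. The log2 fold change was -0.32 ± 0.59 (SE, 95% interval -1.58 to 0.95, edgeR adjusted p = 0.896), and with WT replicate 3 or LMNA-deficient replicate 2 left out it was 0.12 or 0.034. These values rest on 21 to 210 counts per library, and *Crem* shares exon positions with *Gm6225* on the opposite strand. The strand setting of the counting is not given in the sources used here, so the 2 genes may not be fully apart.

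*Atf1* (ENSMUSG00000023027.13, chromosome 15 from 100227819 to 100261244, forward strand), which pairs with CREB1 on cAMP response elements, was at 21.6, 14.1, 12.6 and 25.2 CPM in the WT replicates. It was at 34.3, 19.6, 19.8 and 15 CPM in the LMNA-deficient replicates. Only LMNA-deficient replicate 1 was above the WT range, and the log2 fold change was 0.26 ± 0.36 (SE, 95% interval -0.51 to 1.03, edgeR adjusted p = 0.854). Without that library it was -0.034.

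None of the 4 coactivators had a log2 fold change whose 95% interval excluded 0. *Crtc3* (ENSMUSG00000030527.15, chromosome 7 from 80586627 to 80688877, reverse strand), the CRTC gene with the highest level per length here, was at 112, 126, 86.0 and 111 CPM in the WT replicates and at 81.6, 56.2, 94.9 and 102 CPM in the LMNA-deficient replicates. Each LMNA-deficient library was below the WT mean of 109 ± 16.8 CPM (SD, n = 4), but WT replicate 3 lay among them. The level was 1.30-fold lower, with a log2 fold change of -0.37 ± 0.22 (SE, 95% interval -0.85 to 0.099, edgeR unadjusted p = 0.112, adjusted p = 0.557). Its direction was the same in all 18 alternative fits, from -0.49 to -0.20.

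*Crtc1* and *Crtc2*, the other CRTC genes, were less abundant and more variable. *Crtc1* (ENSMUSG00000003575.13, chromosome 8 from 70382355 to 70439579, reverse strand), best known from neurons, was at 22.0, 16.1, 10.5 and 22.3 CPM in the WT and at 23.0, 31.4, 15.7 and 6.00 CPM in the LMNA-deficient replicates. The LMNA-deficient libraries thus held both its highest and its lowest level, and the log2 fold change was 0.091 ± 0.45 (SE, 95% interval -0.88 to 1.06, edgeR adjusted p = 0.965). *Crtc2* (ENSMUSG00000027936.18, chromosome 3 from 90254163 to 90264125, forward strand), known for its part in hepatic gluconeogenesis, was at 34.8, 22.6, 22.5 and 29.5 CPM in the WT and at 23.8, 6.47, 32.7 and 33.9 CPM in the LMNA-deficient replicates. Apart from LMNA-deficient replicate 2, all its libraries were between 22.5 and 34.8 CPM. The log2 fold change was -0.18 ± 0.41 (SE, 95% interval -1.07 to 0.70, edgeR adjusted p = 0.918), and it was 0.13 without that library.

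*Crebbp* (ENSMUSG00000022521.10, chromosome 16 from 4081328 to 4213997, reverse strand), the acetyltransferase that binds phosphorylated CREB1, was at 226, 183, 81.8 and 218 CPM in the WT replicates and at 152, 118, 257 and 162 CPM in the LMNA-deficient replicates. WT replicate 3 was the lowest and LMNA-deficient replicate 3 the highest of the 8 libraries. The means differed by less than the spread between replicates, with 177 ± 66.3 CPM in the WT and 172 ± 59.6 CPM in the LMNA-deficient cells (SD, n = 4 each) and a log2 fold change of -0.039 ± 0.30 (SE, 95% interval -0.69 to 0.61, edgeR adjusted p = 0.977). *Ep300*, which encodes the close relative p300 and was named after its values were seen, was at 6.81 ± 0.88 CPM per kb in the WT and 6.82 ± 1.81 CPM per kb in the LMNA-deficient cells (SD, n = 4 each), against 13.1 ± 4.89 and 12.7 ± 4.40 CPM per kb for *Crebbp*.

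**Figure D2:**
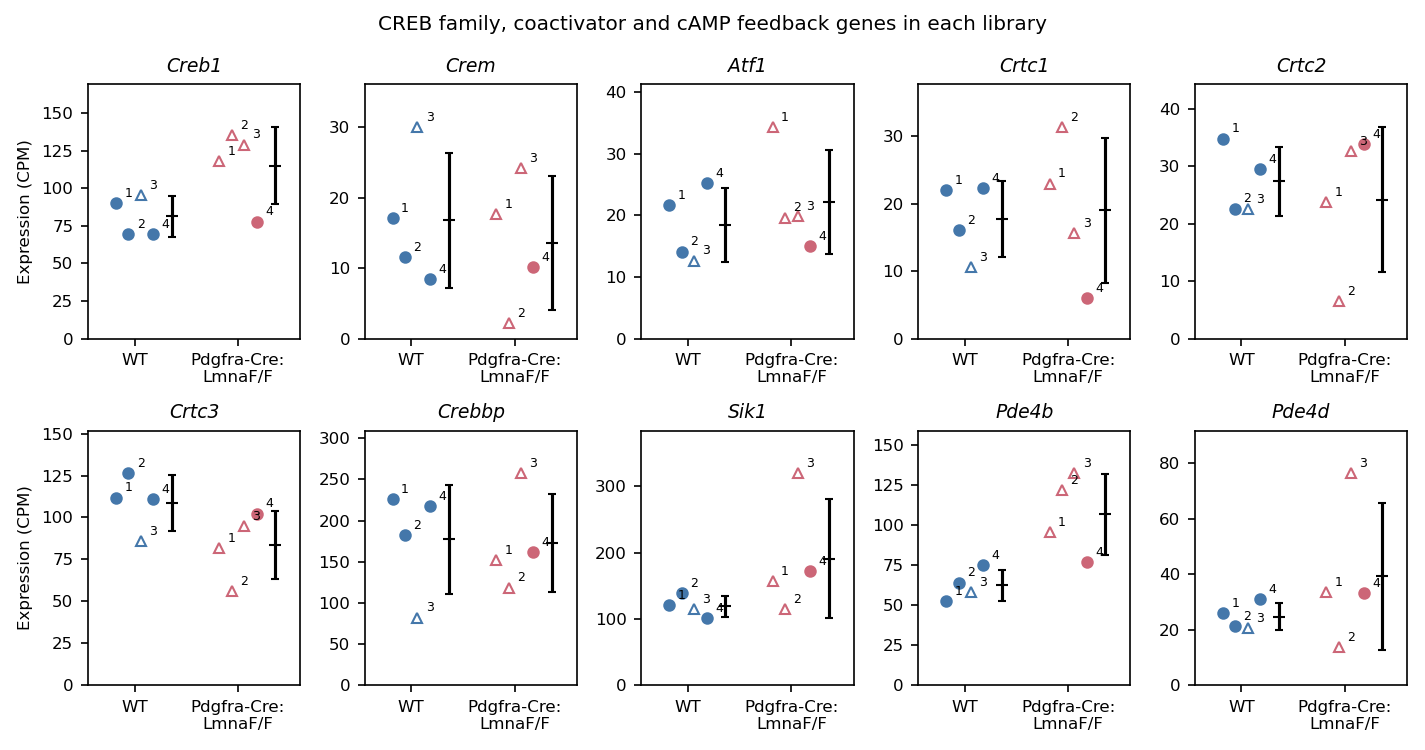
Level of the 10 genes in each library (CPM, linear axes from 0), numbered by replicate, for the WT and the *Pdgfra-Cre:Lmna*F/F cells. Filled circles are libraries with Y-linked RNA, open triangles those with at most 1.96 CPM of it, and bars the mean ± SD of 4 libraries; the genotypes do not overlap for *Pde4b*, and overlap for the other 9 genes.

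The feedback genes had the highest log2 fold changes of the 10 in the edgeR test of all libraries, but not in every fit. With limma-voom, *Creb1* (0.57) was above *Pde4d* (0.28). Without LMNA-deficient replicate 3, *Creb1* (0.44) was above *Sik1* (0.32) and *Pde4d* (0.11). *Pde4b* (ENSMUSG00000028525.16, chromosome 4 from 102087543 to 102607259, forward strand), a cAMP phosphodiesterase induced by cAMP and by inflammatory signals, was at 52.1, 63.9, 58.2 and 74.7 CPM for WT replicates 1 to 4. It was at 95.2, 122, 132 and 76.7 CPM in LMNA-deficient replicates 1 to 4. Every LMNA-deficient library was above every WT library, by a margin of 76.7 against 74.7 CPM at the closest pair, and the means were 62.2 ± 9.59 and 106 ± 25.1 CPM (SD, n = 4 each). The level was 1.71-fold of that in WT, a log2 fold change of 0.77 ± 0.22 (SE, 95% interval 0.30 to 1.25), with an unadjusted p of 0.00341 and an adjusted p of 0.167 from edgeR. By p it ranked 266 of the 13036 genes.

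*Pde4b* kept its direction in all 18 alternative fits, with log2 fold changes from 0.66 to 0.90. Its adjusted p was between 0.0603 and 0.291 in the 10 fits of all libraries and between 0.0858 and 0.379 with 1 library left out. The adjusted p nearest to the threshold of 0.05 came from DESeq2 with 1 factor of unwanted variation estimated from residuals (RUVr). Without LMNA-deficient replicate 4, the library with the most cardiac myocyte and hematopoietic marker RNA, the log2 fold change was 0.90 (edgeR adjusted p = 0.0858). Within the libraries with Y-linked RNA the log2 ratio of the *Pde4b* means was 0.27, and within those near 0 it was 0.9998. With the Y-linked covariate the log2 fold change was 0.67 ± 0.26 (SE, edgeR adjusted p = 0.246).

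*Sik1* (ENSMUSG00000024042.7, chromosome 17 from 31844250 to 31855804, reverse strand), the salt-inducible kinase whose transcript cAMP induces within a short time, was at 121, 138, 114 and 101 CPM in the WT replicates. It was at 157, 114, 319.6 and 172 CPM in the LMNA-deficient replicates. Replicates 1, 3 and 4 of the LMNA-deficient cells were above the WT range, replicate 3 far above the others, and replicate 2 was inside it. The WT libraries were close together, with a coefficient of variation of 13.0%, against 46.8% in the LMNA-deficient cells. The level was 1.61-fold of that in WT, a log2 fold change of 0.69 ± 0.27 (SE, 95% interval 0.10 to 1.27), with an unadjusted p of 0.0238 and an adjusted p of 0.332 from edgeR. Without LMNA-deficient replicate 3 the log2 fold change was 0.32 (edgeR adjusted p = 0.695, where leaving out other libraries gave 0.228 or more).

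*Pde4d* (ENSMUSG00000021699.17, chromosome 13 from 108449948 to 109953461, forward strand), which encodes a phosphodiesterase found with β-adrenergic receptors and ryanodine receptors in the heart, was at 25.9, 21.1, 20.6 and 31.1 CPM in the WT replicates. It was at 33.5, 13.7, 76.3 and 33.1 CPM in the LMNA-deficient replicates. As for *Sik1*, replicates 1, 3 and 4 were above the WT range and replicate 3 was highest, whereas replicate 2 was the lowest of all 8 libraries. The log2 fold change was 0.66 ± 0.41 (SE, 95% interval -0.21 to 1.52, edgeR unadjusted p = 0.126, adjusted p = 0.577). It was 0.11 without LMNA-deficient replicate 3 and 0.94 without replicate 2.

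Taking the 10 genes as a group, none passed an adjusted p of 0.05 in the edgeR test, where 0.407% of the 13036 genes did, 0.169% with a higher and 0.238% with a lower level. DESeq2 and limma-voom likewise called none of them, with 2.15% of all genes called by DESeq2 and 0.967% by limma-voom. At an unadjusted p under 0.05 there were 3 of 10, *Pde4b*, *Sik1* and *Creb1*, all with a higher LMNA-deficient level, where 11.9% of all genes were under that p, 6.24% with a higher and 5.65% with a lower level. The genotypes did not overlap for 1 of the 10, *Pde4b*, against 8.03% of all genes tested, 4.06% with a higher and 3.97% with a lower level. The log2 fold change was positive for 6 and negative for 4 of the 10, with a median of 0.18, against 51.8% positive and a median of 0.025 over all genes tested. The 3 feedback genes were all positive, from 0.66 to 0.77, and 3 of the 4 coactivators were negative, from -0.37 to -0.039.

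**Figure D3:**
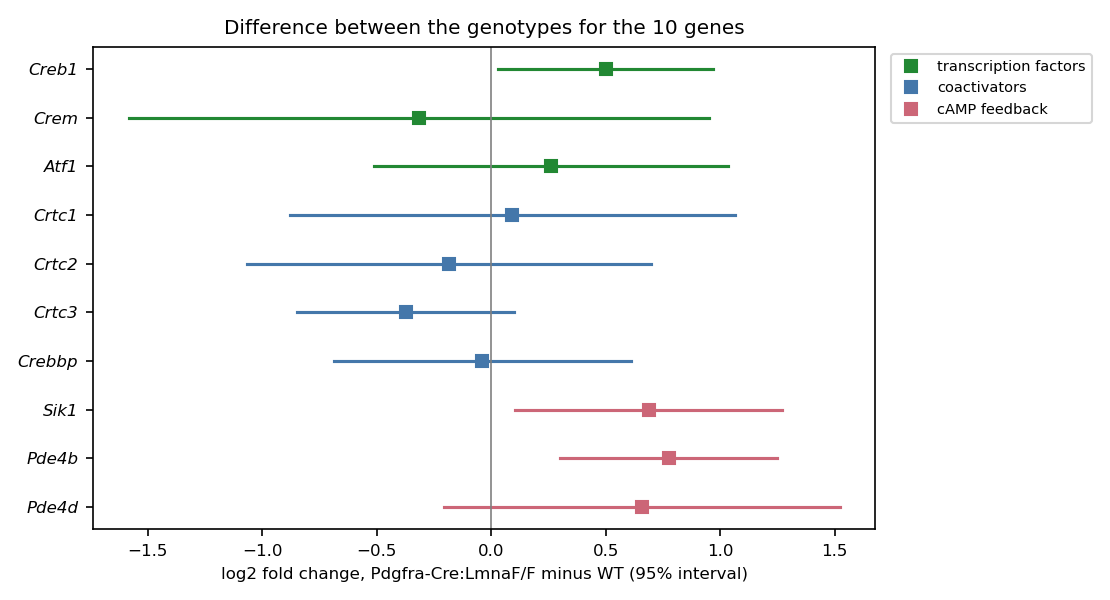
log2 fold change of the 10 genes, *Pdgfra-Cre:Lmna*F/F minus WT, from edgeR with 4 libraries per genotype. Squares are estimates and lines 95% intervals, coloured by role; the intervals of *Creb1*, *Sik1* and *Pde4b* lie above 0, before adjustment over the 13036 genes, and the other 7 include 0.

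The genes varied among themselves from library to library. LMNA-deficient replicate 3 held the highest LMNA-deficient level of 5 of the 10 genes, *Crem*, *Crebbp*, *Sik1*, *Pde4b* and *Pde4d*, and the lowest of none. LMNA-deficient replicate 2 held the lowest LMNA-deficient level of 6 genes, *Crem*, *Crtc2*, *Crtc3*, *Crebbp*, *Sik1* and *Pde4d*, yet the highest of *Creb1* and *Crtc1*. LMNA-deficient replicate 4 was lowest for *Creb1*, *Atf1*, *Crtc1* and *Pde4b*. Among the WT libraries, replicate 3 was lowest for 6 genes, *Atf1*, *Crtc1*, *Crtc2*, *Crtc3*, *Crebbp* and *Pde4d*, and highest for *Creb1* and *Crem*. The coefficient of variation ran from 13.0% (*Sik1*) to 56.9% (*Crem*) in the WT and from 22.5% (*Creb1*) to 70.2% (*Crem*) in the LMNA-deficient cells. *Crem*, *Crtc1*, *Crtc2*, *Sik1* and *Pde4d* varied by more than 45% in the LMNA-deficient cells.

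Over the 10 alternative fits and the 8 fits with 1 library left out, *Creb1*, *Sik1*, *Pde4b*, *Pde4d* and *Crtc3* kept the sign of their log2 fold change. *Crem*, *Atf1*, *Crtc1*, *Crtc2* and *Crebbp* changed sign in at least 1 of them. The number of genes under an unadjusted p of 0.05 was between 1 and 4 of 10 in these fits, and *Pde4b* was among them in every fit. *Sik1* was not among them without WT replicate 4, without LMNA-deficient replicate 3 or with the replicate number as a block. *Creb1* was not among them with the Y-linked covariate or without any 1 of WT replicates 2 and 4 and LMNA-deficient replicates 1, 2 and 3.

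**Figure D4:**
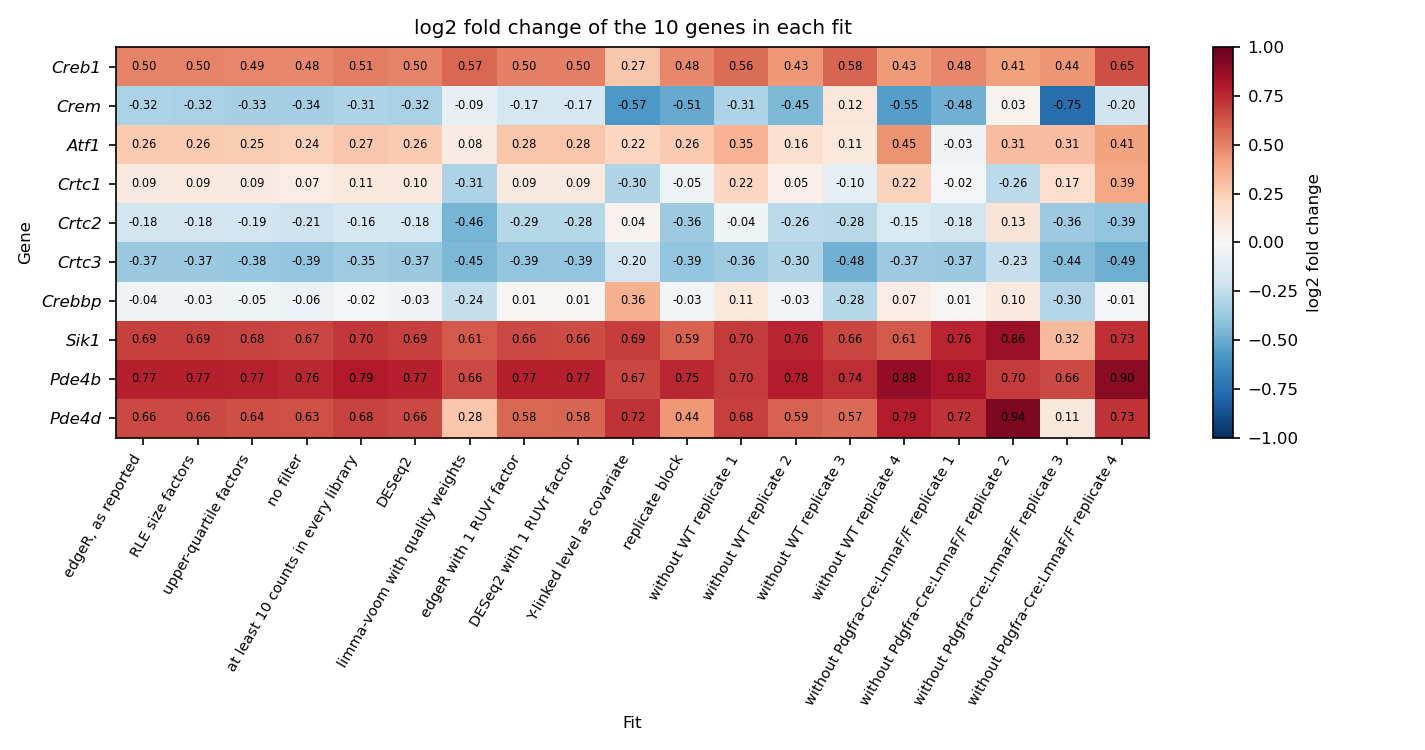
log2 fold change of the 10 genes (*Pdgfra-Cre:Lmna*F/F minus WT, colour and number) in the edgeR fit reported, the 10 alternative fits and the 8 fits without 1 library. *Pde4b* stays between 0.66 and 0.90, whereas *Sik1* and *Pde4d* drop to 0.32 and 0.11 without *Pdgfra-Cre:Lmna*F/F replicate 3.

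The genes whose levels were most like those of *Creb1* over the 8 libraries were *Socs4*, *Tomm70a* and *Ptp4a2*, with a root mean square difference of the centred log2 CPM of 0.099, 0.11 and 0.12, where the median over 13026 genes was 0.62. For *Sik1* they were *B9d2*, *Zfp318* and *Abcb10*, at 0.15, 0.18 and 0.20, where the median was 0.71. All 3 genes nearest to *Sik1* had their highest level in LMNA-deficient replicate 3, as *Sik1* did, which their choice by likeness to *Sik1* favours. The values of *B9d2* rest on 11 to 124 counts per library. These likenesses are descriptions over 8 libraries that share their genotype and depth, and no test was made.

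The genes before CREB1 in the pathway were counted by list, with the counts of genes with a higher and a lower level at an unadjusted p under 0.05. Over all genes, edgeR called 0.407%, DESeq2 2.15% and limma-voom 0.967%, and 6.24% were higher and 5.65% lower at the unadjusted p. Of 13 genes tested in the list of Gs-coupled receptors and their partners, edgeR called none. At the unadjusted p, 1 was higher and 1 lower, and DESeq2 and limma-voom called 1 each. The list also held *Lpar1*, which is not a Gs-coupled receptor. *Ramp2*, which forms the adrenomedullin receptor with *Calcrl*, was at 380 to 643 CPM in the WT and 199 to 370.5 CPM in the LMNA-deficient cells, a difference of -0.82 on the log2 scale that passed in DESeq2 (adjusted p = 0.0315) and not in edgeR (adjusted p = 0.175, range over the alternative fits 0.0139 to 0.218). The prostacyclin receptor *Ptgir* (0.73) and the prostaglandin E2 receptor *Ptger4* (0.51) had positive log2 fold changes with overlapping genotypes, which were 0.22 and 0.15 with the Y-linked covariate and 0.46 and 0.21 without LMNA-deficient replicate 1. Of 11 Gs subunits and adenylyl cyclases, none was called by edgeR, DESeq2 or limma-voom and 1 was higher and 2 lower at the unadjusted p, with log2 fold changes of -0.68 for *Adcy9*, -0.72 for *Adcy7* and 2.68 for *Adcy1*, the last at no more than 6.79 CPM in any library.

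Of 10 genes of protein kinase A, its inhibitors and the cAMP sensors Epac, edgeR and limma-voom called none. At the unadjusted p, 1 was lower (5.65% over all genes), and DESeq2 called 1 (2.15% over all genes). *Prkaca*, which encodes a catalytic subunit that phosphorylates CREB1, was at 99.4, 119, 86.8 and 117 CPM in the WT and at 73.1, 61.1, 38.9 and 56.0 CPM in the LMNA-deficient replicates. The genotypes did not overlap, and the log2 fold change was -0.88 ± 0.23 (SE, edgeR adjusted p = 0.125, DESeq2 adjusted p = 0.0270, range over the alternative fits 0.0209 to 0.152). *Prkacb*, which encodes another catalytic subunit and was named after its values were seen, was at 141 to 181 CPM in the WT and 145 to 164 CPM in the LMNA-deficient cells, with a log2 fold change of -0.09 ± 0.18 (SE, edgeR adjusted p = 0.898). The inhibitor *Pkia* (-0.52) and *Rapgef4* (-2.09, at most 3.36 CPM) did not pass in edgeR or DESeq2. With 1 library left out, their log2 fold changes ranged from -0.81 to -0.27 and from -2.73 to -1.69. Of 12 other cAMP phosphodiesterases, *Pde10a* (-0.31), *Pde3b* (0.49) and *Pde8b* (1.05) had the lowest p. With 1 library left out, these values ranged from -0.43 to -0.14, from 0.28 to 0.82 and from 0.76 to 1.36. A list of 13 genes held other SIK and CREB kinases, p300 and calcineurin, the phosphatase that acts on CRTC proteins. The kinases *Rps6ka5* (0.67) and *Sik3* (-0.31) and the calcineurin subunit *Ppp3ca* (0.23) had the lowest p there. In neither list was a gene called by edgeR, DESeq2 or limma-voom, and none was under an unadjusted p of 0.05 in edgeR. The median log2 fold change was -0.041 for the receptors, -0.19 for Gs and cyclases, -0.11 for the kinase list, 0.14 for the phosphodiesterases and 0.026 for the SIK list.

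Of 15 other bZIP factors of the CREB and ATF kind, edgeR called none, and 3 were higher and 3 lower at the unadjusted p (6.24% and 5.65% over all genes). DESeq2 called 2 of them and limma-voom 1 (2.15% and 0.967% over all genes). *Atf3*, a stress-induced factor that *Creb1* and *Atf1* resemble in their DNA-binding domain, was at 5.70, 5.53, 9.43 and 14.3 CPM in the WT and at 18.5, 35.4, 80.1 and 27.7 CPM in the LMNA-deficient replicates, with a log2 fold change of 2.18 ± 0.46 (SE, edgeR adjusted p = 0.0649, DESeq2 adjusted p = 0.00134, limma-voom adjusted p = 0.107). *Creb3l1* and *Atf5*, which act in the secretory pathway and in stress responses, had log2 fold changes of -1.25 and -0.82 (edgeR adjusted p = 0.159 and 0.209, DESeq2 adjusted p = 0.0445 and 0.0937), and *Creb3l1* also passed in limma-voom (adjusted p = 0.0379).

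The genes known to be induced through cAMP response elements were counted as a further list, which was chosen with earlier results of these data known. Its counts beside the shares over all genes are therefore descriptions and not a test. Of 25 target genes tested of 30 chosen, 3 rose in the LMNA-deficient cells and none fell (edgeR adjusted p under 0.05). Over all genes, 0.169% rose and 0.238% fell. DESeq2 called 9 of the target genes and limma-voom 7 (2.15% and 0.967% over all genes). At the unadjusted p, 16 were higher and 1 lower (6.24% and 5.65% over all genes), the genotypes did not overlap for 11, all higher (4.06% over all genes), and the median log2 fold change was 1.29. *Btg2*, an antiproliferative gene, was at 343, 110, 511 and 268 CPM in the WT and at 1011, 1046, 1887 and 1261 CPM in the LMNA-deficient replicates, a log2 fold change of 2.08 ± 0.37 (SE, edgeR adjusted p = 0.0315). The orphan nuclear receptors *Nr4a2* and *Nr4a1* rose by 2.78 and 1.92 on the log2 scale (edgeR adjusted p = 0.0427 and 0.0471). Both calls were lost with the Y-linked covariate (edgeR adjusted p = 0.0655 and 0.0728), that of *Nr4a2* also with the replicate number as a block (0.0963) and that of *Nr4a1* with upper-quartile factors (0.0502). With 1 library left out, the call remained in 2 of 8 fits for *Nr4a2*, 1 of 8 for *Nr4a1* and 4 of 8 for *Btg2*, and the log2 fold change of *Nr4a2* lay between 2.46 (without WT replicate 3) and 3.47 (without WT replicate 1). The lowest adjusted p over the alternative fits was 1.2e-05 for *Nr4a2*, in DESeq2 with 1 RUVr factor, and 4.1e-05 for *Nr4a1*, in edgeR with no filter on low counts. *Nr4a1* was highest in LMNA-deficient replicate 3, the library that was highest for *Sik1* and *Pde4b*. The 1 gene with a lower level, *Ccnd1*, named after its values were seen, had a log2 fold change of -1.88 that was 0.056 without WT replicate 2. With chromosome 18 again left out, 31 RefSeq windows were searched for 19 of the 25 tested targets. Of these windows, 6.45% held the full element and 54.8% a half-site, and the targets were chosen as genes known to be induced through this element. *Nr4a1* and *Nr4a2* each had 4 half-sites and no full element in their RefSeq window.

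Transcripts that tissue digestion is known to induce were counted as a list of their own, chosen like the target list with earlier results of these data known. Of 23 such genes outside the target list, with *Atf3* among them, 2 rose and none fell in edgeR (0.169% and 0.238% over all genes), *Ier3* (log2 fold change 1.88, adjusted p = 0.0221) and *Gadd45b* (1.74, adjusted p = 0.0239), and DESeq2 and limma-voom called 8 each (2.15% and 0.967% over all genes). At the unadjusted p, 13 were higher and none lower (6.24% and 5.65% over all genes), and the genotypes did not overlap for 9, all higher (4.06% over all genes). The median log2 fold change of this list was 0.57. With 1 library left out, the call remained in 5 of 8 fits for *Ier3* and in 4 of 8 for *Gadd45b*. *Fos*, *Junb* and *Egr1*, counted here among the CREB targets and named after their values were seen, also respond to digestion and to many signals other than cAMP, and the part of the digestion in the levels of the targets, of *Sik1* and of *Pde4b* was not tested. Without WT replicate 4 or without LMNA-deficient replicate 3, edgeR called no gene of any of the 8 lists.

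**Figure D5:**
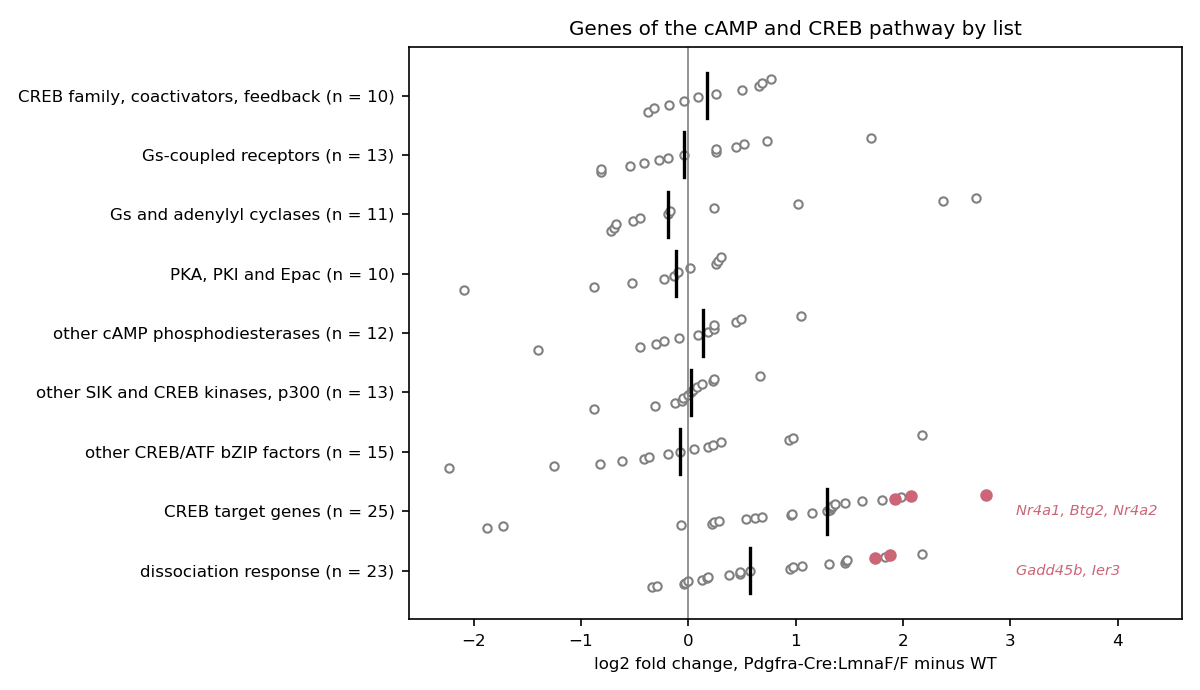
log2 fold change (*Pdgfra-Cre:Lmna*F/F minus WT) of every tested gene in the CREB circuit and in 8 lists of related genes. Filled points passed an adjusted p of 0.05 in edgeR and are named, open points did not, and black bars are medians, which are 0.18 for the 10 genes, 1.29 for the CREB target genes and 0.57 for the dissociation response.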

How the data were processed

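RNA-seq counts of sorted PDGFRA-positive ventricular cells from 4 *Pdgfra-Cre:Lmna*F/F and 4 WT samples were used. The authors depleted ribosomal RNA, built strand-specific libraries, used HISAT2 to align 150 bp paired reads to mm10 and featureCounts to count them on GENCODE genes, with versions and strand setting not given in the sources used here. The authors deposited raw counts per gene symbol, before the RUV step that their methods name. The submitters' processing notes list FastQC and DESeq2. Genotypes and replicate numbers were taken from the sample titles, and no library duplicated another.

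The counts were fitted with edgeR 4.0.16 (R 4.3.3), by TMM normalization, filterByExpr and the quasi-likelihood test with genotype as the only term, and p was adjusted by Benjamini-Hochberg over 13036 genes, with calls at 0.05. CPM values use TMM library sizes, and intervals are at 95%. Alternatives were RLE and upper-quartile factors, no filter, at least 10 counts in every library, DESeq2 1.42.0, limma-voom (limma 3.58.1) with quality weights, RUVr with 1 factor in edgeR and DESeq2, the Y-linked level as a covariate, the replicate number as a block, and each library left out. The script was tested on simulated data. Summed markers were compared by exact two-sided permutation over 70 assignments, with a smallest p of 0.0286. Lengths, coordinates and transcript numbers come from GENCODE M21, in which 18918 of the 18957 symbols were found. Total counts were 2080555 to 12502949, and the SEs and intervals come from the fit, which includes the spread between libraries.

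The genes, the lists and the tests were chosen with earlier results of these data known. Named beside the 10 genes were *Lmna*, the called genes of each list or otherwise the 3 with the lowest p, and the 3 genes most like *Creb1* and *Sik1*, and genes named after their values were seen are marked so. Lists were described by counts and medians, with no test over a list.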

Additional observations from a re-analysis of the deposited data

Results flagged for a closer look

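In groups of 4 libraries, 7 of 98 groups had 1 library far from the other 3 by Dixon's criterion, which chance alone meets in about 1 of 20 groups, and none was a group of the 10 genes. *Sik3* was low in WT replicate 3 (46.8 CPM) and in LMNA-deficient replicate 2 (65.0 CPM), which were also the lowest libraries of their genotype for *Crtc2*, *Crtc3* and *Crebbp*. In LMNA-deficient replicate 3, *Nr4a1* (1312 CPM) and *Ier3* (86.2 CPM) were high, as *Sik1* and *Pde4d* were. The summed cardiac myocyte markers (3223 CPM) and hematopoietic markers (349 CPM) were high in LMNA-deficient replicate 4, and the summed erythroid markers (666 CPM) in LMNA-deficient replicate 1.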

How the results depend on the processing

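No fit called any of the 10 genes, and the 95% intervals, which reach log2 fold changes of -1.58 for *Crem* and 1.52 for *Pde4d*, set the size of difference that 8 libraries could miss. Signs changed for *Crtc1* with limma-voom (-0.31), the Y-linked covariate (-0.30) and the replicate block (-0.047), for *Crtc2* with the Y-linked covariate (0.036), for *Crebbp* with RUVr in edgeR (0.0082) and DESeq2 (0.0095) and with the Y-linked covariate (0.36), and for *Sik3* with that covariate (0.013). The cause was not tested. With 1 library left out, log2 fold changes ranged from -0.75 to 0.12 for *Crem*, from -0.034 to 0.45 for *Atf1*, from -0.26 to 0.39 for *Crtc1*, from -0.39 to 0.13 for *Crtc2* and from -0.30 to 0.11 for *Crebbp*.

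The number of genes called was 53 in edgeR, 274 without a filter, 309 with DESeq2, 126 with limma-voom, 85 and 520 with RUVr in edgeR and DESeq2, 119 with the Y-linked covariate, and 13 to 76 with 1 library left out. Of all pathway genes 5 were called, 23 without a filter, 20 with DESeq2, 17 with limma-voom, 12 and 26 with RUVr, and 0 to 9 with 1 library left out. Of the CREB targets 3 were called, 12 without a filter, 9 with DESeq2, 7 with limma-voom, 6 and 13 with RUVr, 1 with the Y-linked covariate, and 0 to 4 with 1 library left out.

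The labels do not say whether samples with the same replicate number were paired. Deviations of same-numbered libraries correlated at -0.030 to 0.040 and those of other pairs at -0.034 to 0.038. No shared deviation was thus seen, which cannot exclude a pairing. With the replicate block, 36 genes, 8 pathway genes, 4 CREB targets and none of the 10 genes were called.

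Per kilobase of the longest transcript, WT means were 9.71 (*Creb1*), 5.72 (*Crem*), 9.15 (*Crtc2*), 21.3 (*Crtc3*), 26.3 (*Sik1*), 14.5 (*Pde4b*) and 5.86 (*Pde4d*) CPM. With 1 library left out, the differences between genotype means of summed markers ranged from -3713 to 1490 CPM (fibroblast), -152 to 857 (cardiac myocyte), -34.6 to 70.03 (hematopoietic), -211 to 5.30 (erythroid) and -0.38 to 3.10 (Schwann).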
